A study of Mus musculus and Mus musculus x Mus spretus with 8 samples.

Results

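Olfr78 is an olfactory receptor gene that is also transcribed outside the nose, and the question here is which other genes of olfactory receptor export and signalling are transcribed beside it in carotid body glomus cells. The 10 genes followed were chosen by function out of 24060 gene symbols: Olfr78 and its relative Olfr558, the receptor export genes Rtp1, Rtp2 and Reep1, the G protein gene Gnal with its exchange factor Ric8b, and the cyclase and channel genes Adcy3, Cnga2 and Ano2. All 10 symbols were in the table. The study sequenced RNA of 8 single glomus cells of the mouse. The animals were wild type and aged postnatal day 4 to 5, and the cells were picked because they expressed Th, Uchl1 and Kcnk3. By strain label 7 cells were C57BL/6 and cell 2 was C57BL/6 X SPRET/EiJ, a cross with another mouse species. No treatment is named, the labels form 1 group, and they tie no cell to an animal, so the group counts as 1 sample and no p-value was computed.

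In an olfactory sensory neuron a receptor reaches the surface with the help of Rtp1, Rtp2 and Reep1. When an odorant binds, the receptor activates the G protein alpha subunit encoded by Gnal, which stimulates the adenylyl cyclase encoded by Adcy3. The cyclic AMP that is made opens a channel that contains the Cnga2 subunit, and the calcium that enters opens the chloride channel encoded by Ano2. Each such neuron is known for transcribing a single receptor gene. Glomus cells sense arterial oxygen, and Olfr78, a receptor for short-chain fatty acids and by some reports for lactate, is known from these cells and from vascular smooth muscle.

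Olfr78 lies on the minus strand of chromosome 7 in build mm10 (chr7:102738511-102759471), and Olfr558 lies on the plus strand 26446 bases away (chr7:102702215-102712064). Their coding sequences, 960 and 951 bases long without the stop codon, were 65.1% identical over 939 aligned bases. The most alike 90 bases of both genes are shown because they bear on whether reads of one can be counted for the other. Capitals mark the 22 bases that differ, and both stretches are read 5′ to 3′ along the coding strand (chr7:102742637-102742726 for Olfr78 and chr7:102709545-102709634 for Olfr558, in the coding exon of each gene in the GENCODE M21 annotation).
Olfr78: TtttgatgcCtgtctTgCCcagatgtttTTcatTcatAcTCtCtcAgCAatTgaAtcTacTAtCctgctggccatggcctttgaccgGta
Olfr558: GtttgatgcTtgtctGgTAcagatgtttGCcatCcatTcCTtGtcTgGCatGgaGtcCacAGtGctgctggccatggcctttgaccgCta
The longest stretch that the annotated transcripts share exactly is 23 bases. Of the 50-base words of the longest Olfr78 transcript, 0.517% also occur in a transcript of another gene. The exception in position is Olfr560, whose gene span, introns included, overlaps that of Olfr78 by 7549 bases on the same strand. The 0.517% counts words shared with Olfr560 transcripts too, so the longest Olfr78 transcript shares little sequence with them. Other Olfr78 transcripts were not compared in this way. Olfr560 had 0 reads in all 8 cells, and how reads in the overlap were assigned is not given in the sources used here.

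Values are read counts relative to the cell's total (RPM, the unit the authors deposited), and log2 levels are log2(RPM + 1), a scale that understates differences near 0. A gene was called detected at 1 RPM or more. The cells held 3960200 to 30218206 reads, with the most in cell 2, and detected 4040 to 6956 genes. A count of 0 allows up to 3 reads, or 0.0993 RPM in the deepest and 0.758 RPM in the shallowest cell. This limit and the intervals below cover counting error only, since reads copied by PCR are not independent molecules. Of 12 glomus cell markers 11 were found in 6 or more cells, Th, Uchl1 and Kcnk3 among them by the way the cells were picked, with summed levels of 10281 to 33402 RPM. Cell 4, where Olfr78 was nearly absent, had the lowest sum. It also held 6 of 8 markers of sympathetic neurons or chromaffin cells, summing to 5618 RPM against 406 to 1623 RPM in the other cells, with Dbh at 2588 RPM, Slc6a2 at 1873 RPM and Pnmt at 0 reads in all 8 cells. Within the glomus list, cell 4 was the lowest for Epas1 (170 RPM), Ndufa4l2 (2.23 RPM), Chgb (153 RPM) and Cox4i2 (0 reads), and the highest for Uchl1 (2201 RPM) and Gata3 (661 RPM). These genes are named after their values were seen. The summed glia-like markers were also highest in cell 4, at 377 RPM. The part of this in the results for cell 4 was not tested. Results are therefore also given without it.

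Of the 10 genes, 4 were detected in at least 6 of 8 cells: Olfr78, Gnal, Reep1 and Ric8b. Over all symbols 14.2% were. Adcy3 was detected in 4 cells, so 5 of 10 genes were found in at least 1 cell, which is near the 44.8% of all symbols. The other 5 were found in no cell, among them Olfr558, Cnga2 and Ano2 with 0 reads in every cell. The plot of levels by cell shows Olfr78 high in 7 cells, a wide spread over cells for Reep1, Gnal, Ric8b and Adcy3, and the rest at or near 0 in all. Without cell 4 the count was again 4. With any of cells 1, 2, 3, 5, 6 or 8 left out it was 3, since Ric8b then reached only 5 cells.

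**Figure D1:**
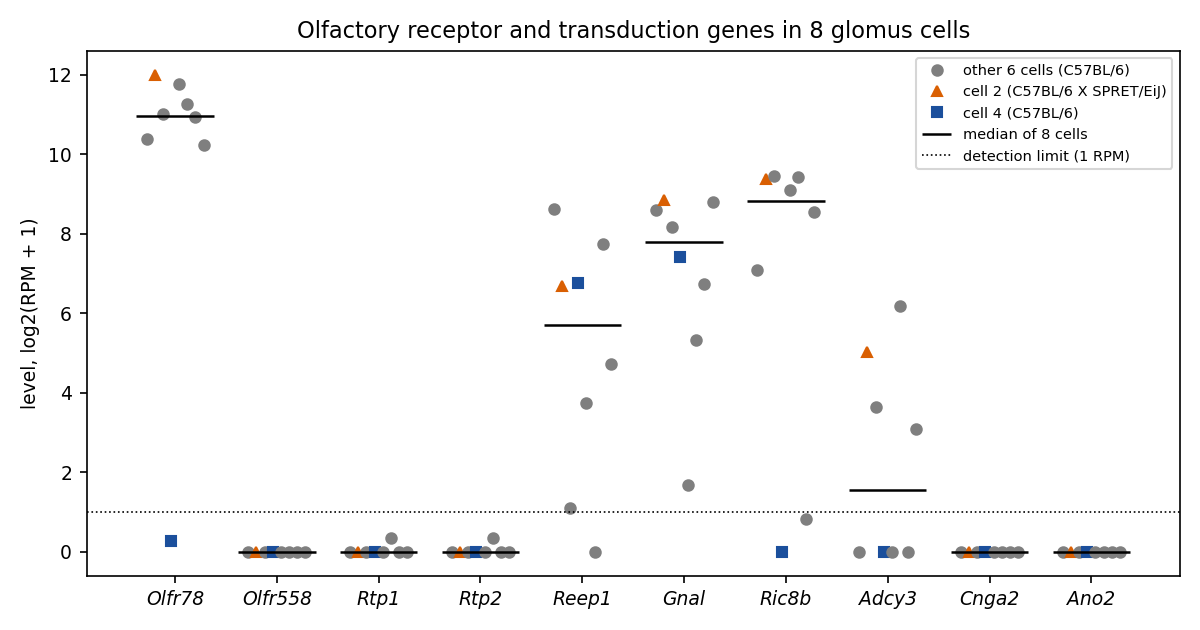
Level of each of the 10 genes in each cell, as log2(RPM + 1), with the 6 other C57BL/6 cells as circles, cell 2 as a triangle, cell 4 as a square, and a line at the median of 8 cells. Olfr78 sits at 10.23 or more in 7 cells and at 0.27 in cell 4, while Olfr558, Cnga2 and Ano2 sit at 0 throughout.

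Of the 2 receptors, Olfr78 was at 1339, 4118, 2054, 0.202, 3508, 2451, 1949 and 1203 RPM in cells 1 to 8, with a median of 2001 RPM. It was thus among the most abundant transcripts of 7 cells and nearly missing from cell 4. Over the 7 cells without cell 4 the highest was 3.42 times the lowest, and the SD was 0.66 log2 units, against 3.87 log2 units over all 8 cells. With cell 4 left out, of 1402 genes detected in all 7 cells, 66 (4.71%) had a lower SD, and the median SD was 1.57. Among the 51 of them with a median of 1000 RPM or more, whose median SD was 0.81, Olfr78 stood less apart, with 18 having a lower SD. Per kilobase of transcript Olfr78 ranked between 22 and 162 of 23630 symbols in the 7 cells, highest in the cross-strain cell.

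A single read of Olfr78 was counted in cell 4. The lowest other cell, at 1203 RPM, was 5945 times that level, with a counting interval of 1067 to 234833. Missing a gene that the other 7 cells detect was common: 229 genes were below 1 RPM in cell 4 alone, or 16.3% of those detected in the other 7. The same count was 283 for cell 5, 211 for cell 6 and 22 to 112 for the rest. These counts take in genes at any level from 1 RPM up in the other 7 cells, while Olfr78 was at 1203 RPM or more there. Genes as high as Olfr78 were not counted separately. What sets Olfr78 in cell 4 apart from other cells and genes was not tested.

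Olfr558 had 0 reads in all 8 cells. Set against the 3 reads that a count of 0 allows in each cell, Olfr78 was at least 1145-fold higher per kilobase in cell 1 and at least 26868-fold higher in the deeply sequenced cell 2, with the other 5 cells between. No fold is given for cell 4, where both genes were under that limit.

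Reads of the whole receptor family fell almost entirely on Olfr78. The table held 1122 olfactory receptor symbols, of which 1 (0.0891%) was detected in at least 6 cells and 6 (0.535%) in any cell, and 1091 had 0 reads in all cells. In the 7 cells Olfr78 took 97.4% to 99.96% of olfactory receptor reads, the lowest share being that of cell 2 (exact binomial interval 97.3% to 97.4%). In cell 4 it took 1 of 10 such reads, or 10% (0.253% to 44.5%), and none of the other receptors there reached 1 RPM.

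**Figure D2:**
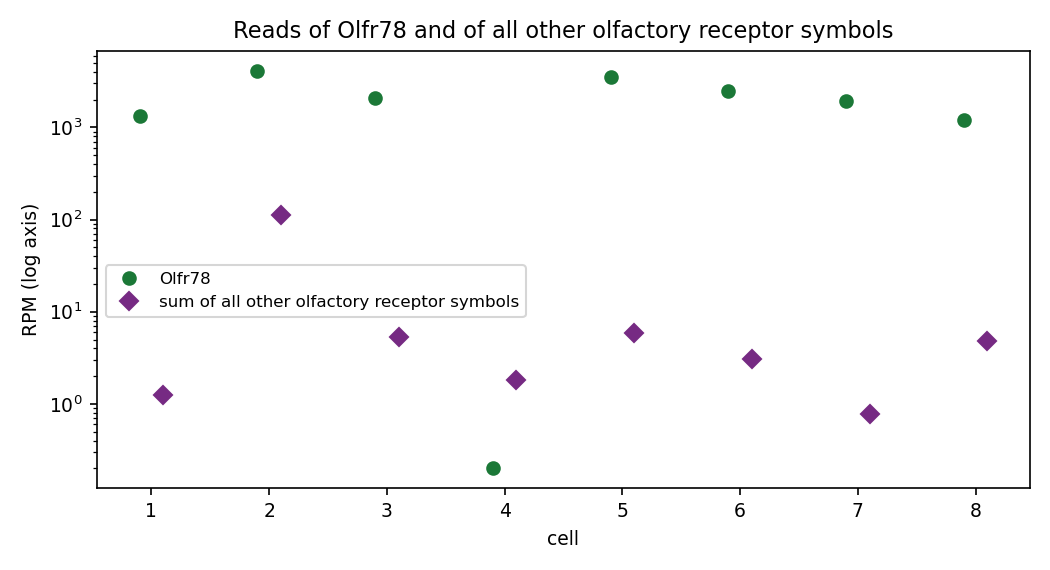
RPM of Olfr78 (circles) and summed RPM of all other olfactory receptor symbols (diamonds) in each cell, on a log axis. In the 7 cells Olfr78 is at 1203 RPM or more and the others sum to between 0.771 and 112 RPM, while in cell 4 both are below 2 RPM.

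The 5 other receptors that were detected were low. Olfr57 was at 87.7 RPM and Olfr1279 at 22.3 RPM in cell 2, each detected in that cell only. Olfr482 was detected in 5 cells at no more than 3.77 RPM, and 44.4% of the 50-base words of its longest transcript also occur in other genes, chiefly Ramac. Olfr2 reached 4.25 RPM in cell 5 and Olfr912 1.13 RPM in cell 6. Each is detected at a small fraction of the level of Olfr78 in the same cell. The neighbours of Olfr78 in its receptor cluster were silent or nearly so, like the receptor family at large. Of 40 further olfactory receptor symbols within 500 kilobases of the start of Olfr78, 39 had 0 reads in every cell. The remaining gene had 1 read in all. Of all 1122 olfactory receptor symbols 1091 had 0 reads in every cell, so the neighbours did not stand apart.

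Of the export genes only Reep1 was detected. RTP and REEP proteins are membrane proteins that help receptors leave the endoplasmic reticulum, and REEP proteins also shape that membrane. Reep1 (chr6:71707561-71810710) was at 396, 103, 1.13, 108, 12.5, 0, 215 and 25.2 RPM in cells 1 to 8. It was thus detected in 7 cells, over a wide range, and was present in cell 4 where Olfr78 was not. The absence was in cell 6, where Olfr78 stood at 2451 RPM. In RPM per kilobase, Reep1 minus its relative Reep5 was negative in 8 of 8 cells. The median of that difference was -3.08 on the log2 scale (SD 2.19), from -7.02 to -0.21. In RPM with no length correction cell 1 alone went the other way, with Reep1 at 396 RPM and Reep5 at 333 RPM.

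Rtp1 and Rtp2 (both on chromosome 16) had 2 reads each, all of them in cell 6, or 0.283 RPM, which is below the detection limit. Their coding sequences were 80.6% identical and the transcripts share an exact run of 47 bases, but no 50-base word, so short reads could match both. In the list of 8 RTP, REEP and Ric8 relatives, 2 (25%) were detected in at least 6 cells, against 14.2% of all symbols. These were Reep5 and Ric8, the table's symbol for Ric8a. Rtp4 had 0 reads in all cells. In the 6 cells with Olfr78 other than cell 6, neither Rtp1 nor Rtp2 had a read.

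Gnal, the alpha subunit of the olfactory G protein, was detected in all 8 cells. It stood at 387, 462, 287, 169, 2.23, 38.9, 107 and 445 RPM in cells 1 to 8, with a median of 228 RPM. The lowest cell, cell 5, had the second highest Olfr78 and the fewest detected genes, and cell 4 lay within the range of the others. Gnal overlaps the gene Mppe1 on the opposite strand by 1750 bases on chromosome 18, and 14.7% of the 50-base words of its longest transcript occur in another gene. Mppe1 was at 49.5, 78.6, 57.1, 1.62, 0, 19.1, 16.5 and 35.1 RPM, like Gnal highest in cell 2 and lowest in cell 5. Since the strand setting is not given in the sources used here, reads of the overlap cannot be told apart.

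Gnas, which encodes the general stimulatory alpha subunit that can couple to the same receptors, exceeded Gnal in 8 of 8 cells. In RPM per kilobase the median was 39.7 for Gnal and 4445 for Gnas. The difference within a cell had a median of -6.72 on the log2 scale (SD 2.07) and ran from -11.78 to -5.54. The reads of the Gnas symbol may include several transcripts of a complex locus. Among 16 alpha subunit genes Gnal ranked 6th by median RPM per kilobase, after Gnas, Gna11, Gnai3, Gnao1 and Gnaq. Gnas lay above all others in every cell. The ranges over cells of the genes from Gna11 to Gnai2 in that order overlap, so their order is not settled beyond the spread. Of 15 alpha subunits in the fixed list, 8 (53.3%) reached detection in at least 6 cells, 2 in fewer and 5 nowhere. The share in at least 6 cells was 14.2% over all symbols.

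Ric8b encodes an exchange factor and chaperone of the alpha subunits of Gnal and Gnas. It stood at 135, 670, 708, 0, 554, 687, 0.771 and 372 RPM in cells 1 to 8. The gene (chr10:84917616-85018337) was high in 6 cells and near 0 in cells 4 and 7. In cell 4 it was missing together with Olfr78, while in cell 7 Olfr78 was at 1949 RPM. Ric8a, which serves other alpha subunits, was at 107, 112, 794, 360, 371, 0, 319 and 461 RPM. It thus had 0 reads in cell 6 and was present in cells 4 and 7. Per kilobase each of Ric8b and Ric8a was the higher in 4 cells (median difference 0.04 log2 units, SD 4.61), and every cell had at least 1 of them at 100 RPM or more. Olfr78, Gnal and Ric8b were all detected in 6 cells, which are all the cells with Ric8b, and 5 of these also held Reep1. The detected values include Gnal at 2.23 RPM in cell 5 and Reep1 at 1.13 RPM in cell 3.

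Adcy3, the cyclase of olfactory cilia, was low where it was found. Its values were 31.5, 11.5, 71.4 and 7.55 RPM in cells 2, 3, 6 and 8, and 0 reads were counted in cells 1, 4, 5 and 7. Thus 3 cells with Olfr78 above 1000 RPM had no read of Adcy3. The gene (chr12:4133103-4213525) overlaps Cenpo on the opposite strand, and 21.4% of the 50-base words of its longest transcript also occur in another gene. Cenpo was below 1 RPM in every cell. All 4 cells with Adcy3 also held Olfr78, Gnal and Ric8b. Since 6 of the 8 cells held those genes together, this overlap says little.

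Adcy1, a cyclase of neurons that calcium activates, was present in 8 of 8 cells and exceeded Adcy3 in each. Adcy1 had a median of 44.0 and Adcy3 of 0.671 RPM per kilobase. Adcy3 minus Adcy1 within a cell had a median of -4.69 on the log2 scale (SD 2.14) and ran from -7.00 to -0.46. With a pseudocount of 0.1 in place of 1 it was -6.67, because 4 of the 8 differences involve a count of 0. The narrowest difference was in cell 6. Of 9 other cyclases, Adcy1 alone (11.1%) was found in at least 6 cells, against 14.2% of all symbols. Another 5 were found in 1 to 5 cells, and 3 nowhere.

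**Figure D3:**
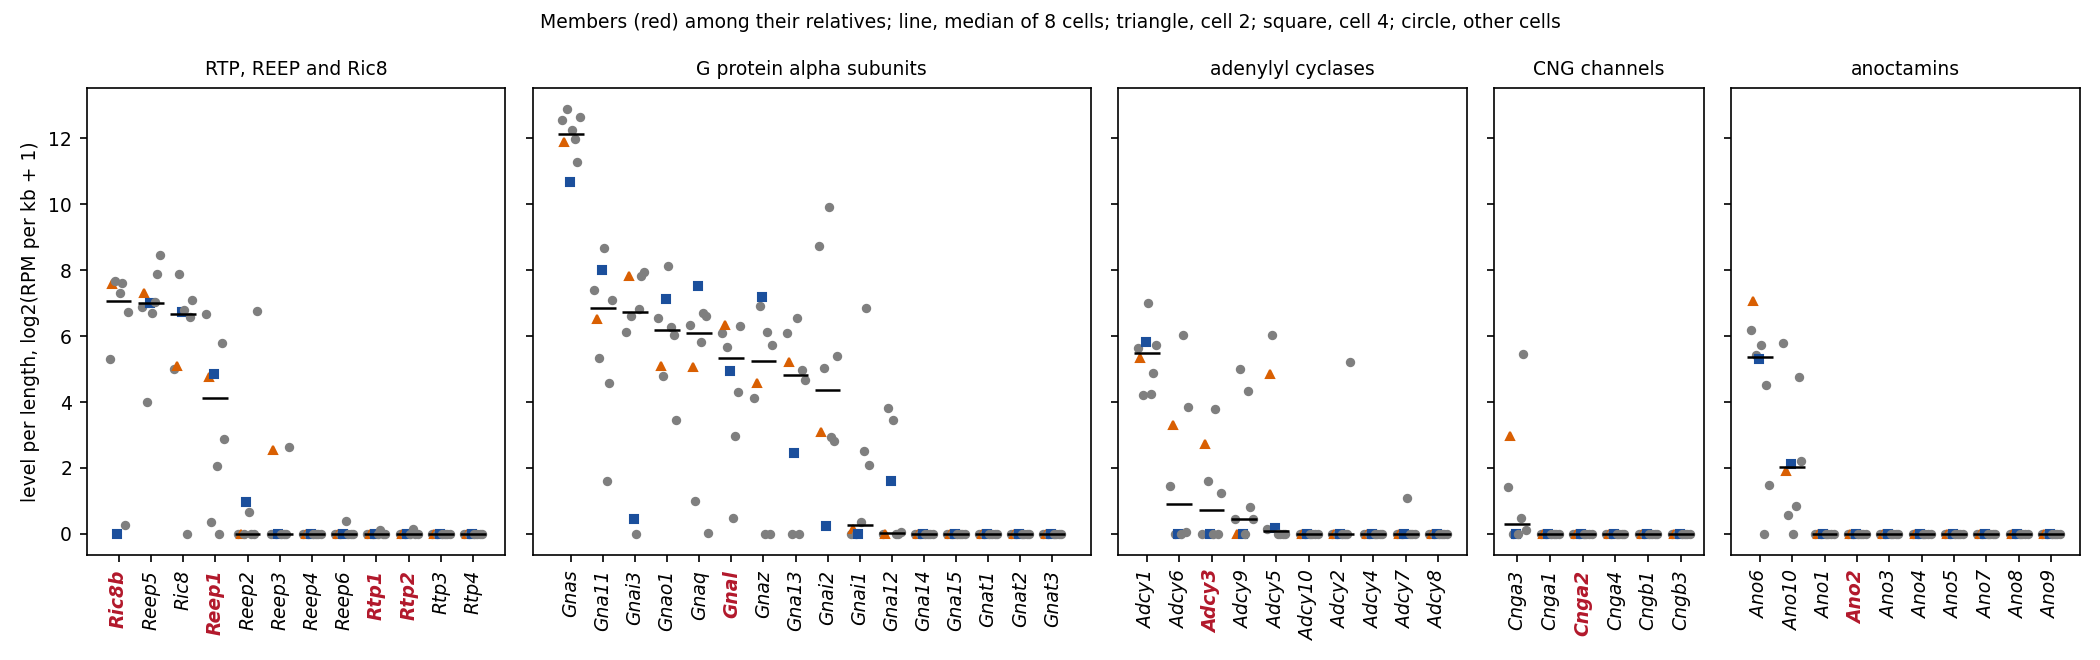
Level per kilobase, as log2(RPM per kb + 1), of the genes of interest (red names) and their relatives in each cell, ordered within a family by the median over 8 cells (line). Ric8b stands first and Reep1 4th of 12 RTP, REEP and Ric8 genes, Gnal 6th of 16 alpha subunits and Adcy3 3rd of 10 cyclases, while Cnga2 and Ano2 are at 0.

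No channel gene of the olfactory pathway was found. Cnga2 (chromosome X) had 0 reads in all 8 cells, and so had Cnga4 and 3 further genes in a list of 5 other cyclic nucleotide-gated channel subunits. Cnga3, a subunit of cone photoreceptors, was detected in 4 cells, at up to 152 RPM in cell 7, and had a median of 0.852 RPM. Ano2 (chromosome 6) also had 0 reads. Of 9 other anoctamins 7 had 0 reads in all cells. The other 2, Ano6, a lipid scramblase, and Ano10, were each detected in 7 cells, with medians of 197 and 8.07 RPM. At the depth of these cells a level of Cnga2 or Ano2 below the limit given above was not detectable.

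Further genes of olfactory transduction were led by those that many cell types share. In a list of 21, 7 (33.3%) were found in at least 6 cells, against 14.2% of all symbols. Another 8 were found in 1 to 5 cells and 6 nowhere. The median of the median levels in the list was 0.05 RPM, against 0 RPM over all symbols. Among the highest were Gnas and Gnb1, a G protein beta subunit gene with a median of 888 RPM. Genes typical of olfactory neurons were not found more often than symbols at large. Of 8 olfactory neuron markers, 1 (12.5%) reached detection in 6 or more cells, 1 in fewer and 6 nowhere. For all symbols the first of these shares was 14.2%, and 44.8% reached detection in any cell. The markers include 4 of the 10 genes of interest. The only markers found, Gnal in 8 cells and Adcy3 in 4, were among those 4. Cnga2, Cnga4, Gng13, Stoml3 and Ano2 had 0 reads in all cells, and Omp reached 0.753 RPM at most. Adrbk2, the gene of a kinase that turns off active receptors, was present in 8 of 8 cells at 15.5 to 909 RPM and is named here with its values already known.

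Downstream of cyclic AMP, 5 of 12 effector genes (41.7%) were found in at least 6 cells, 4 in fewer and 3 nowhere. Over all symbols 14.2% were found in at least 6 cells. The highest were genes of protein kinase A. Medians were 828 RPM for the regulatory subunit Prkar1a, 585 RPM for the catalytic subunit Prkacb, 383 RPM for Prkaca and 89.4 RPM for Prkar2a. The exchange factor gene Rapgef3 and the pacemaker channel genes Hcn2 and Hcn4, named after their values were seen, had 0 reads in all cells.

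Other genes for the reported ligands of Olfr78 were found about as often as symbols at large. In a list of 12 receptors and transporters of lactate and short-chain fatty acids, 2 were found in at least 6 cells, 3 in fewer and 7 nowhere, where 14.2% of all symbols were found in at least 6 cells and 13292 of 24060 nowhere. Those 2 were Slc16a1, a monocarboxylate transporter (median 46.3 RPM, 6 cells), and Bsg, its surface partner (658 RPM, 8 cells). Of the receptors, named after their values were seen, Ffar2, Hcar1 and Hcar2 had 0 reads in all cells. Ffar3 was detected in cell 6 only, at 919 RPM, beside 2451 RPM of Olfr78.

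Markers of other cells that could be present differed from list to list. As a scale for these lists, 14.2% of all symbols reached 1 RPM in 6 or more cells, and 44.8% in any cell. Whether the short lists lie below these shares was not tested. Of 8 vascular smooth muscle markers none was detected in at least 6 cells, 3 in fewer and 5 nowhere. Their sum was 0 to 355 RPM per cell. Cnn1, Smtn and Des had 0 reads, Myh11 reached 0.447 RPM and Acta2 8.48 RPM, while Pdgfrb, which is not specific to muscle, reached 350 RPM in cell 3. In cell 1, with 1339 RPM of Olfr78, all 8 were at 0. Among 7 endothelial markers Cldn5 was detected in 6 cells at up to 2730 RPM and the other 6 were below 1 RPM throughout. All 9 blood and immune markers had 0 reads. Fibroblast markers were limited to Col3a1 in 2 cells, at up to 184 RPM in cell 6, and of 8 markers of glia-like type II cells 3 were detected, none in more than 5 cells, with Gfap, S100b and Sox10 at 0.

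The genes whose profile over the 8 cells was most like that of Olfr78 were Pkib, Tmem59, Ndufa4l2, Mettl7a2Higd1c and Slc35d3. Likeness was the root mean square difference between log2 profiles after each was centred on its own mean, over genes detected in at least 6 cells. It was 0.39 log2 units for Pkib and 0.78 to 0.81 for the others, against a median of 4.23 over 3421 genes. Pkib encodes an inhibitor of protein kinase A. It was at 2376, 4932, 2153, 0.202, 2806, 2834, 1778 and 2092 RPM in cells 1 to 8, with its highest value in cell 2 and a single read in cell 4, as for Olfr78. All 5 were chosen by this likeness, which describes 8 cells and is led by cell 4. Over the 7 cells without it, the 5 most like were Usp34, Cct4, Cnbp, Gabarapl2 and Pkib, at 0.35 to 0.40 log2 units against a median of 2.59. Pkib alone is on both lists. Among the genes of interest Ric8b was the most like over 8 cells, in place 288 of 3421 at 2.82 log2 units, followed by Gnal at 4.56 and Reep1 at 5.23.

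**Figure D4:**
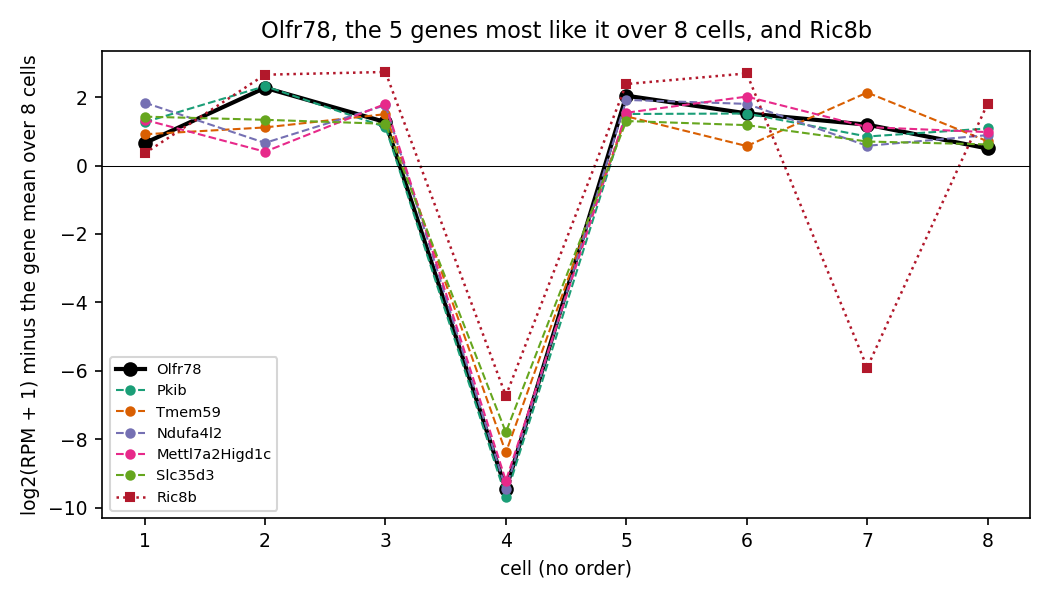
Profiles of Olfr78 (black), the 5 genes most like it, and Ric8b (squares), as log2(RPM + 1) minus the mean of the gene over the 8 cells, which have no order. The 5 genes fall with Olfr78 in cell 4, but not all stay close to it elsewhere. In cell 2, Olfr78 (4118 RPM) and Pkib (4932 RPM) are at their highest. Mettl7a2Higd1c (787 RPM) is there at its lowest outside cell 4. Ric8b also falls in cell 7.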

How the data were processed

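Each of 8 single cells gave 1 table of 24060 gene symbols. Per the labels, a cell was lysed, its RNA reverse transcribed and amplified by PCR, and a Nextera library made. Per the submitters' processing notes reads were aligned with Bowtie to mm10. The Bowtie version, counter, annotation, strand setting and treatment of multiply matching reads are not stated in the labels or files used. The authors deposited raw read counts and RPM, the count relative to the cell's total, which corrects neither for length nor for amplification. No molecular identifiers are named.

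From these, detection (1 RPM), log2(RPM + 1), shares of reads with exact (Clopper-Pearson) 95% intervals, and RPM per kilobase of the longest GENCODE M21 transcript (23630 symbols matched) were computed with Python 3.11.15, pandas 2.3.3, scipy 1.17.1 and Biopython 1.88. Ric8a was matched through its RefSeq synonym. The likeness measure was tested on simulated data with counting noise only, where copies of the Olfr78 profile were planted among genes of even level. It cannot tell how far a gene stands out amid the wider spread of the real cells. The genes of interest and gene lists were chosen with earlier results of these data known. The text names all 10 genes, their paired relatives, up to 4 leading genes of a list, every detected olfactory receptor and the 5 genes most like Olfr78. Marker genes are named where a statement on their list needs them, and other genes are said to be named after their values were seen. Some listed genes are not reported here by name.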

Additional observations from a re-analysis of the deposited data

Results flagged for a closer look

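A value was singled out if the distance to its nearest neighbour among the 8 cells took more of their whole range than Dixon's 95% limit allows. Chance flags about 1 in 20 groups. Of 54 values tested, 16 passed, and 9 of these were low values of cell 4.

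Olfr78 stood at a log2 level of 0.27 in cell 4 against 10.23 or more elsewhere. Its share of olfactory receptor reads was 10% there against 97.4% or more, and Olfr78 minus Olfr558 was 0.0609 log2 units per kilobase there. These values are not separate findings, as all rest on the same single read of Olfr78. The other 6 low values of cell 4 were Pkib and Slc35d3 at 0.27, Ndufa4l2 at 1.69, and Tmem59, Mettl7a2Higd1c and Usp34 at 0 on the log2 scale. The first 5 of these named genes were chosen for their likeness to Olfr78 over 8 cells, so their low value in cell 4 follows from that choice.

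In the cross-strain cell 2, Uchl1 was low at 8.38 log2 units, against 9.87 or more elsewhere, and Olfr57 and Olfr1279 were high at 6.47 and 4.54. Reep5 was low in cell 3 at 5.44, and Ric8a (Ric8 in the table) was at 0 in cell 6 against 6.75 or more elsewhere. Olfr2 was high in cell 5 at 2.39. Olfr57, Olfr1279 and Olfr2 were included because they reached 1 RPM in at least 1 cell, which for each was only the flagged cell. That choice favours a high flag there. Rtp1 minus Rtp4 was 0.13 log2 units per kilobase in cell 6, from 2 reads, and 0 elsewhere.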

How the results depend on the processing

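Of 16 alternatives that leave out no cell, 15 moved a value by less than the SD over cells or kept a count within 1.5 times. For the level of Olfr78 and for Olfr78 minus Olfr558 this SD was 3.87 log2 units, against 0.66 without cell 4. For the share of Olfr78 it was 31.6 percentage points, against 0.937 without cell 4. For these results the limit is therefore wide, and staying within it says little. The exception was Adcy3 minus Adcy1, at -7.34 log2 units from RPM with no length correction against -4.69 per kilobase, and the share of length, of the pseudocount and of the 4 cells with 0 reads of Adcy3 in this was not tested. The count of 4 genes in at least 6 cells held, with the same 4 genes, at 10 RPM, at 1 read and with each cell thinned to 3960200 reads. On the log2(RPM + pseudocount) scale, Olfr78 minus Olfr558 rose from 10.97 to 14.29 log2 units with a pseudocount of 0.1, as 0 reads set its lower term. Scaling without the 20 highest genes raised Olfr78 by 0.11 and a typical gene by 0.12 log2 units. The use of all exons as length, chosen after the data were seen, gave -6.14 for Gnal minus Gnas. With each cell left out in turn the ranges were 10.93 to 11.00 log2 units for the level of Olfr78 and for Olfr78 minus Olfr558, -6.98 to -6.46 for Gnal minus Gnas, -4.88 to -4.50 for Adcy3 minus Adcy1, 99.7% to 99.8% for the share of Olfr78, and 3 to 4 for the count of genes. No paired analysis was possible because there is 1 group. With cells of unnamed animals as the only units, the spread between animals is unknown.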

Other observations

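Other families of chemosensory receptors, counted by symbol and added after the comparisons were set, were seldom detected. Over all symbols 44.8% were detected in at least 1 cell. None of 15 trace amine-associated receptors, 127 vomeronasal receptors of the second family, 3 and 35 taste receptors of both families, 6 formyl peptide receptors and 16 MS4A proteins was detected in any cell. Of 211 vomeronasal receptors of the first family only Vmn1r90 was, at 25.5 RPM in cell 4. Of 4 free fatty acid receptors only Ffar3 was, at 919 RPM in cell 6, the highest level in these families. The 2 hydroxycarboxylic acid receptors were not detected.

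Regulators of receptor choice in olfactory neurons were present in part. Of 13 genes 4 (30.8%) were detected in at least 6 cells, against 14.2% of all symbols, 6 in fewer and 3 in none. The chromatin genes Bptf (median 288 RPM, 8 cells), Ehmt2 (23.3 RPM), Ehmt1 (22.9 RPM) and Kdm1a (21.8 RPM), the last of them a histone demethylase, led the list. Lhx2, a transcription factor that olfactory receptor transcription needs in the nose, and Ebf2 and Emx2 had 0 reads in all cells. Others were found in few cells, among them Ebf4 in 4 cells at up to 433 RPM, Atf5 in 3 at up to 138 RPM and Ebf1 in 2 at up to 141 RPM. Genes after the first 4 are named with their values already seen.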
